A study of Triticum turgidum subsp. durum with 96 samples.

Results

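The miR166 family was followed across durum wheat (Triticum turgidum ssp. durum) as every row of the conserved miRNA table whose first identifier was MIR166 with any member letter, which gave 14 of the 110 listed miRNAs. Each member carries the name of the plant species and entry whose mature sequence it matched (Zma for maize, Osa for rice, Sbi for sorghum, Bdi for the grass Brachypodium, Gma for soybean and Ath for Arabidopsis), so a name says which reference sequence was found and not that the species was sampled. The measurements were small RNA reads per 1000000 total small RNA reads (RPM) in 96 libraries, 1 from the developing head and 1 from the flag leaf of each of 48 plants. The plants belonged to 4 genotypes, and the study set a genotype labelled tolerant of water deficit against one labelled sensitive in 2 pairs, Tamaroi with EGA Bellaroi and Yawa with Tjilkuri. Within each genotype, plants of the water deficit group were held at 6% soil water content for 15 days from booting, and control plants stayed at 12%, with 3 plants of each treatment in each of 2 growing seasons. This gave 16 groups of genotype, tissue and treatment with 6 libraries each.

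Members of the miR166 family pair with the mRNAs of class III homeodomain leucine zipper (HD-ZIP III) transcription factors and lead to their cleavage. In Arabidopsis and maize this pairing keeps HD-ZIP III activity on the upper side of the leaf, and the same factors act in the shoot meristem and in the vascular strands. The mature strand comes from the 3′ arm of the precursor hairpin, and the 5′ arm gives a partner strand that is usually rarer. The libraries used here measured small RNA only, so neither the HD-ZIP III targets nor marker genes of the organs could be examined. In bulk tissue, fewer cells holding a miRNA cannot be told apart from less of it per cell.

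The sequences show how little separates the members whose values differ. Ath-miR166b is the canonical 21 nt form, and the 7 lines that follow are the forms with the same bases 2 to 8, the part of a miRNA that is placed first against its target and that stands in capitals. Letters are as in the deposited table, with T for U, written 5′ to 3′.
Ath-miR166b: tCGGACCAggcttcattcccc
Zma-miR166h: tCGGACCAggcttcattccc
Osa-miR166m: tCGGACCAggcttcattccct
Gma-miR166j: tCGGACCAggcttcattcccg
Zma-miR166l: tCGGACCAggcttcattcctc
Sbi-miR166k: tCGGACCAggcttcattcct
Osa-miR166k: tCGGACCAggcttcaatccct
Counted from 1 at the 5′ end of Ath-miR166b, Osa-miR166m differs from it by C21T, Gma-miR166j by C21G, Zma-miR166l by C20T and Osa-miR166k by T16A and C21T. Zma-miR166h is Ath-miR166b without its last base, and Sbi-miR166k is 20 nt long and carries C20T. The number of members that share these bases, Ath-miR166b included, was 7 of 14.

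Another 4 members belong to the same 3′ arm but begin at another base or differ within the capitals, so their bases 2 to 8 are their own. Bdi-miR166e starts 1 base and Bdi-miR166f starts 2 bases before Ath-miR166b, Gma-miR166m starts 1 base after it, and Osa-miR166e differs by G4A.
Bdi-miR166f: tCTCGGACcaggcttcattcc
Bdi-miR166e: cTCGGACCaggcttcattccc
Gma-miR166m: cGGACCAGgcttcattcccc
Osa-miR166e: tCGAACCAggcttcattcccc
The remaining 3 members are of other sequence, and are shown because each gave genotype calls, as some members of the 3′ arm also did. Zma-miR166a and Zma-miR166m share 19 of 21 bases (T10G and G19A, from Zma-miR166a to Zma-miR166m) and have the sequence of the 5′ arm partner strand. Bdi-miR166a matches Ath-miR166b at no more than 7 positions in any ungapped placement and shares bases 2 to 8 with no other member.
Zma-miR166a: gGAATGTTgtctggctcgggg
Zma-miR166m: gGAATGTTggctggctcgagg
Bdi-miR166a: gAATGACGccgggtctgaaag
Reads were assigned by the authors with up to 2 mismatches, so members of the 3′ arm that differ at 1 or 2 bases may share reads, and the split between them is uncertain.

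The libraries held 0.609 to 36.1 M small RNA reads (median 5.22 M, where 1 M is 1000000 reads), and 4 held under 1 M, so 1 read was worth 0.0277 to 1.64 RPM. The 110 listed miRNAs together made up 5514 to 23778 RPM in heads (median 16825 RPM) and 13511 to 62618 RPM in flag leaves (median 33974 RPM). Only 5 of the 1344 member values were 0, and 11 of the 14 members were found in every library. In control flag leaves of EGA Bellaroi, replicate 1b stood apart with 20325 RPM for the family sum, against 5167 to 10544 RPM in the other 5 libraries.

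The family was carried by a few abundant members. Over the 96 libraries Osa-miR166k averaged 3065 RPM and ranked 3 among the 110 miRNAs, Ath-miR166b averaged 1759 RPM and ranked 5, Zma-miR166h averaged 734 RPM and ranked 10, and Osa-miR166m averaged 528 RPM and ranked 13. The partner strand Zma-miR166a averaged 35.6 RPM. The least abundant members were Osa-miR166e and Gma-miR166m, at 2.43 RPM each.

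Summed over the 14 members, the family stood at 4399 ± 1146 RPM in developing heads (lowest 1662, median 4367, highest 6652) and at 8209 ± 2890 RPM in flag leaves (lowest 4283, median 7509, highest 20325; SD, n = 48 each). The 2 organs overlapped, although the sum was lower in the head than in the flag leaf of the same plant in 46 of 48 plants. As a share of all listed miRNAs the family made up 27.4 ± 5.32% in heads and 23.2 ± 4.68% in flag leaves, so its lower sum in heads went with a lower total of listed miRNAs there.

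**Figure D1:**
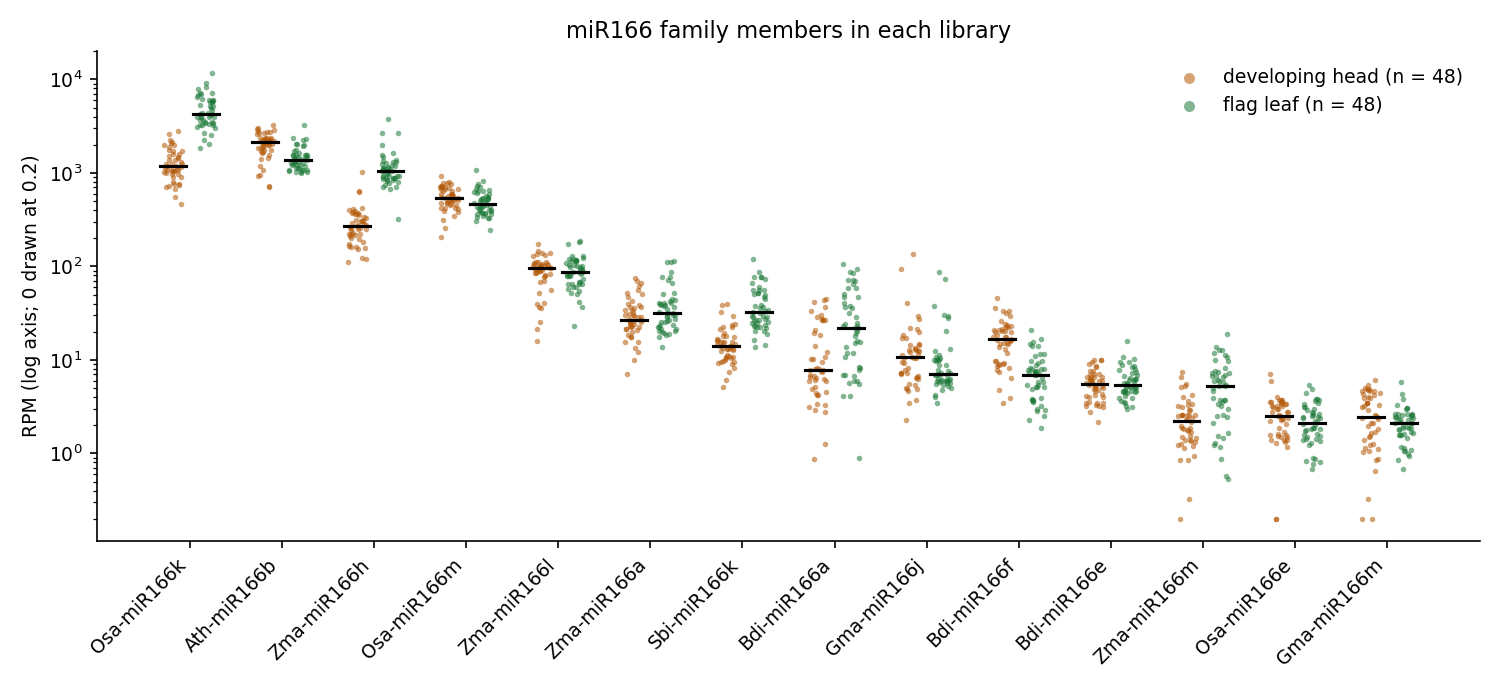
RPM of each of the 14 members in each library on a log axis, developing heads to the left and flag leaves to the right of each name, with 48 points per organ and a black bar at the median; values of 0 are drawn at 0.2. Osa-miR166k had medians of 1175 RPM in heads and 4238 RPM in flag leaves, whereas Ath-miR166b had medians of 2119 RPM in heads and 1384 RPM in flag leaves.

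The comparison of developing head with flag leaf asks whether the organs hold the same set of miR166 forms. The order of the forms differed: the most abundant one on average was Ath-miR166b in heads and Osa-miR166k in flag leaves. Osa-miR166k ranged from 469 to 2812 RPM in heads (median 1175 RPM), against 1828 to 11701 RPM in flag leaves (median 4238 RPM). It was lower in the head in every one of the 48 plants, and in 7 of the 8 comparisons within a genotype and treatment the 6 head and 6 leaf libraries did not overlap. Mean RPM was 2.67 to 5.58 times lower in heads over these 8 comparisons.

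Zma-miR166h, the form that is 1 base shorter than Ath-miR166b, followed Osa-miR166k. It ranged from 110 to 1035 RPM in heads (median 269 RPM), against 324 to 3816 RPM in flag leaves (median 1046 RPM). It was lower in the head in 48 of 48 plants, and the groups did not overlap in 6 of the 8 comparisons. Sbi-miR166k, the other 20 nt form with the same bases 2 to 8, was also lower in the head in 48 of 48 plants. It had 5.17 to 40.0 RPM in heads (median 13.9 RPM) and 13.8 to 119.8 RPM in flag leaves (median 32.2 RPM), and the groups did not overlap in 2 of the 8 comparisons. Gma-miR166m, also 20 nt long but with other bases 2 to 8, was higher in the head in 28 of 48 plants and lower in 20. Over all 8 comparisons and all 110 miRNAs, 33.5% of values lay lower in heads with no overlap and 7.27% lay higher.

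Ath-miR166b went the other way. It ranged from 714 to 3281 RPM in heads (median 2119 RPM), against 1003 to 3228 RPM in flag leaves (median 1384 RPM), and was higher in the head in 39 of 48 plants. The groups overlapped in 7 of the 8 comparisons. Bdi-miR166f, which starts 2 bases earlier, had 3.42 to 45.9 RPM in heads (median 16.7 RPM) and 1.85 to 20.8 RPM in flag leaves (median 6.97 RPM). It was higher in the head in 46 of 48 plants, and its mean was 1.70 to 3.50 times higher in heads over the 8 comparisons.

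In limma on log2(RPM + 1), averaged over the 8 pairs of groups, 2 members were higher in heads and 6 were lower at a Benjamini-Hochberg adjusted p under 0.05, whereas 17.3% of the 110 miRNAs were called higher and 72.7% lower. The median log2 change was −0.06 over the members and −0.98 over all 110 miRNAs. The called changes were −1.89 for Osa-miR166k (standard error 0.11, limma adjusted p = 6.59e-30), −2.01 for Zma-miR166h (standard error 0.12, limma adjusted p = 1.53e-28) and −1.25 for Sbi-miR166k (standard error 0.13, limma adjusted p = 1.92e-15). Bdi-miR166f rose by 1.11 (standard error 0.14, limma adjusted p = 4.24e-12) and Ath-miR166b by 0.45 (standard error 0.09, limma adjusted p = 2.69e-06). All 5 calls were kept in each of 16 alternatives, rescaling of the libraries to a common median ratio among them.

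Among the sequences outside the 3′ arm, the log2 change in heads was −1.05 for Bdi-miR166a (standard error 0.15, limma adjusted p = 6.93e-10) and −0.82 for Zma-miR166m (standard error 0.14, limma adjusted p = 7.98e-08), but neither passed after median-ratio scaling, at −0.27 and −0.17. The partner strand Zma-miR166a changed by −0.31 (standard error 0.10, limma adjusted p = 0.00216), and this direction flipped to 0.53 after median-ratio scaling. That scaling placed the median of the 110 miRNAs at −0.20 and that of the members at 0.68, and called 9 members higher and 3 lower in heads. The share of all 110 called is not given for that scaling or for the plant-block fit that follows. Their member counts therefore cannot be set against a background. With each plant as a block, 4 members were called higher and 6 lower, the additions being Gma-miR166j at 0.27 (limma adjusted p = 0.00265, against 0.178 without the block) and Osa-miR166m at 0.17 (limma adjusted p = 0.0457, against 0.0607 without the block). Osa-miR166e, Bdi-miR166e, Zma-miR166l and Gma-miR166m, with log2 changes between −0.07 and 0.14, passed in neither of these RPM fits.

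**Figure D2:**
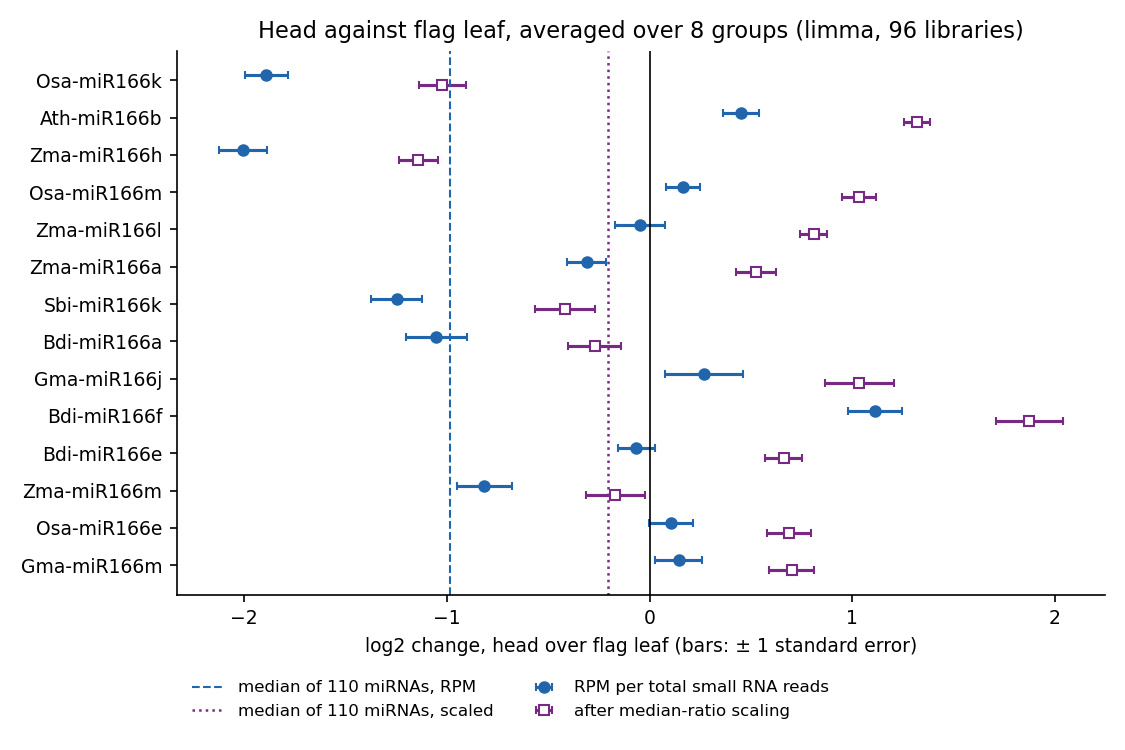
Log2 change of each member, head over flag leaf, averaged over 8 pairs of groups in limma (96 libraries; bars, 1 standard error), from RPM as deposited (filled circles) and after median-ratio scaling (open squares), with the median of the 110 miRNAs as a dashed line for RPM and a dotted line for scaled values. Zma-miR166h at −2.01 and Osa-miR166k at −1.89 lie left of the dashed line at −0.98, Ath-miR166b at 0.45 and Bdi-miR166f at 1.11 lie right of 0 on both scales, and Zma-miR166a is at −0.31 in RPM and at 0.53 after scaling.

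Within single comparisons of genotype and treatment, Osa-miR166k, Zma-miR166h and Sbi-miR166k were each called lower in heads in all 8 of 8. Bdi-miR166f was called higher in 7 of 8 and Ath-miR166b in 4 of 8. In all, members gave 13 calls higher and 31 lower, beside a background of 10.9% higher and 51.6% lower over the 880 tests. After median-ratio scaling Zma-miR166h was lower in 8 and Osa-miR166k in 6 of the 8, Sbi-miR166k was called in 0, and Ath-miR166b, Bdi-miR166f and Osa-miR166m were each higher in 8.

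Ratios within a library do not depend on the total to which reads are scaled. The ratio of Zma-miR166h to Ath-miR166b, 2 sequences that differ only by the last base, was 0.149 ± 0.073 in heads (lowest 0.0762, median 0.134, highest 0.512), against 0.793 ± 0.257 in flag leaves (lowest 0.321, median 0.784, highest 2.02; SD, n = 48 each). It was lower in the head in 48 of 48 plants, and 46 of the 48 head libraries lay below every flag leaf library. Group means of the ratio were 0.108 to 0.213 in heads and 0.640 to 1.07 in flag leaves, with no overlap between the organs in group means.

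The ratio of Osa-miR166k to Ath-miR166b behaved likewise, at 0.685 ± 0.379 in heads (lowest 0.289, median 0.580, highest 2.36) and 3.29 ± 0.932 in flag leaves (lowest 1.06, median 3.27, highest 5.00; SD, n = 48 each). This ratio too was lower in the head in 48 of 48 plants. Osa-miR166k made up 29.4 ± 7.95% of the family sum in heads and 57.8 ± 7.54% in flag leaves, and Ath-miR166b made up 46.6 ± 7.42% in heads and 18.5 ± 3.60% in flag leaves. Osa-miR166m and Zma-miR166l shifted less: Osa-miR166m stood at 28.2 ± 6.38% of Ath-miR166b in heads and 34.1 ± 5.16% in flag leaves, and Zma-miR166l at 4.34 ± 0.989% in heads and 6.25 ± 1.76% in flag leaves.

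**Figure D3:**
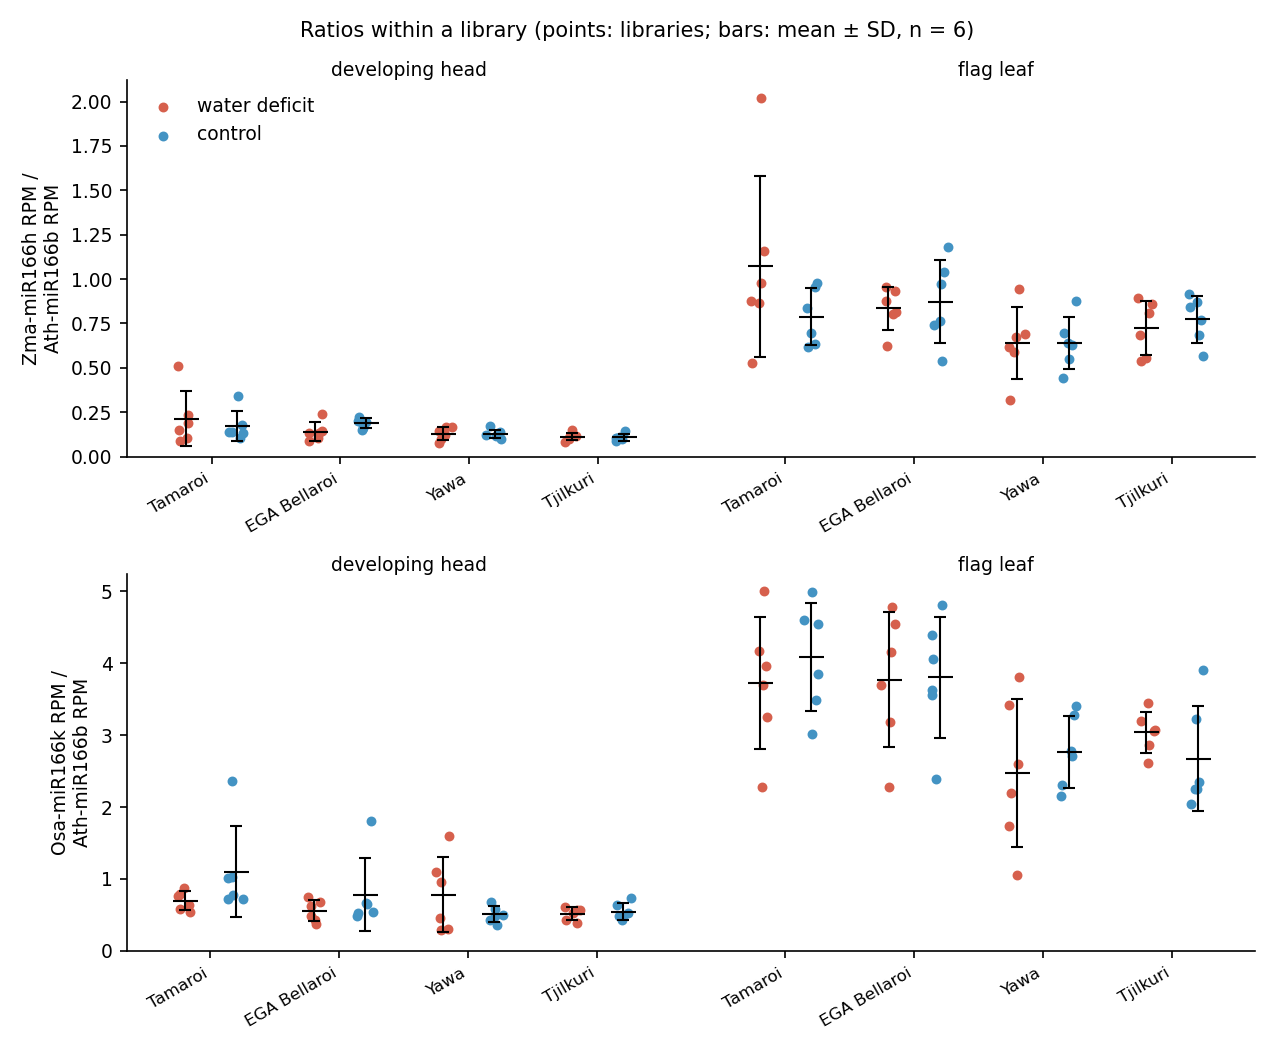
Ratio of Zma-miR166h RPM to Ath-miR166b RPM (upper panel) and of Osa-miR166k RPM to Ath-miR166b RPM (lower panel) in each library, by genotype, with developing heads on the left and flag leaves on the right and water deficit before control (points, libraries; bars, mean ± SD, n = 6). Group means of the upper ratio are 0.108 to 0.213 in heads and 0.640 to 1.07 in flag leaves, and those of the lower ratio are 0.506 to 1.10 in heads and 2.47 to 4.08 in flag leaves.

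When each miRNA was expressed relative to Ath-miR166b in its own library, 11 of the 13 other members were lower in heads, 1 was higher and 1 did not pass. Over all 109 miRNAs tested, 82.6% were lower and 11.9% higher, so most of the list fell relative to Ath-miR166b. The change was −2.46 for Zma-miR166h (standard error 0.09, limma adjusted p = 2.07e-42) and −2.34 for Osa-miR166k (standard error 0.10, limma adjusted p = 6.71e-39), below the median of −1.44 over the 109. Osa-miR166m, at −0.29 (standard error 0.06, limma adjusted p = 2.01e-06), and Osa-miR166e, at −0.35 (standard error 0.11, limma adjusted p = 0.00229), moved less, as did Gma-miR166m, at −0.31 (standard error 0.11, limma adjusted p = 0.00669). The last 2 averaged 2.43 RPM, where the added 1 RPM damps their own change but hardly that of Ath-miR166b. The call of Gma-miR166m was lost with 0.1 RPM added instead and in season 2 alone, and that of Osa-miR166e in season 1 alone. The other called members changed by −1.70 (Sbi-miR166k), −1.50 (Bdi-miR166a), −1.27 (Zma-miR166m), −0.76 (Zma-miR166a), −0.52 (Bdi-miR166e) and −0.50 (Zma-miR166l), with limma adjusted p of at most 3.13e-08. Bdi-miR166f was higher even relative to Ath-miR166b, by 0.66 (standard error 0.14, limma adjusted p = 1.38e-05). Gma-miR166j, at −0.18 (limma adjusted p = 0.317), was not called.

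The closest listed relative outside the family was Ath-miR165a, which differs from Ath-miR166b by T17C, regulates the same HD-ZIP III genes in Arabidopsis, and reads:
Ath-miR165a: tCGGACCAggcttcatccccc
It was scarce, with 0.436 to 9.81 RPM in heads (median 6.33 RPM) and 1.76 to 9.62 RPM in flag leaves (median 4.29 RPM). Its log2 change of 0.28 in heads (standard error 0.10, limma adjusted p = 0.0106) had the sign of Ath-miR166b and not that of Osa-miR166k. Ath-miR165a lies within the 2 mismatches allowed from the far more abundant Ath-miR166b and may share its reads, so the shared sign is not independent evidence.
Other miRNA families with roles in leaf polarity, organ boundaries or meristems (miR160, miR164, miR167, miR171, miR172, miR319, miR394 and miR396) had 26 listed members, of which 12 were higher in heads, 12 lower and 2 not called, beside 17.3% higher and 72.7% lower over all 110 miRNAs. Their median log2 change was 0.16, where that of all 110 was −0.98. Across the 16 group means, the miRNAs outside the family whose levels ran most like Osa-miR166k were Hvu-miR1120 (Spearman rho 0.97), Hvu-miR5049b and Hvu-miR5049f (0.96 each; the median over 96 others was 0.79). Those most like Ath-miR166b were Bdi-miR171d (0.91), Zma-miR167a (0.89) and Ath-miR165a (0.82), where the median was −0.57. These are descriptions over groups that share plants and libraries.

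The comparison of genotypes asks whether the tolerant and the sensitive member of a pair held different levels. Bdi-miR166a and Zma-miR166a had their highest medians in Tamaroi in both tissues, whereas no member was called higher in Yawa than in Tjilkuri. In heads, both treatments together, Bdi-miR166a ranged over 10.3 to 44.5 RPM in Tamaroi (median 29.4 RPM) and over 4.20 to 27.5 RPM in EGA Bellaroi (median 8.10 RPM). It ranged over 0.872 to 20.7 RPM in Yawa (median 4.99 RPM) and over 3.12 to 12.2 RPM in Tjilkuri (median 6.39 RPM). In flag leaves its median was 61.8 RPM in Tamaroi, 34.3 RPM in EGA Bellaroi, 6.84 RPM in Yawa and 11.2 RPM in Tjilkuri, so that Tamaroi and EGA Bellaroi stood above Yawa and Tjilkuri there (n = 12 each).

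Zma-miR166a, the 5′ arm partner strand, was also highest in Tamaroi. Its median in heads was 51.2 RPM in Tamaroi, 24.9 RPM in EGA Bellaroi, 27.2 RPM in Yawa and 21.9 RPM in Tjilkuri. In flag leaves it was 68.5 RPM in Tamaroi, 31.1 RPM in EGA Bellaroi, 27.2 RPM in Yawa and 23.1 RPM in Tjilkuri. The 3 lower genotypes overlapped throughout, with ranges of 15.4 to 36.3 RPM, 6.98 to 36.4 RPM and 12.2 to 36.1 RPM in heads. The mature form Ath-miR166b did not follow: none of its 8 comparisons within a pair passed, and its mean in the tolerant genotype was 0.737 to 1.39 times that in the sensitive one over all 8.

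**Figure D4:**
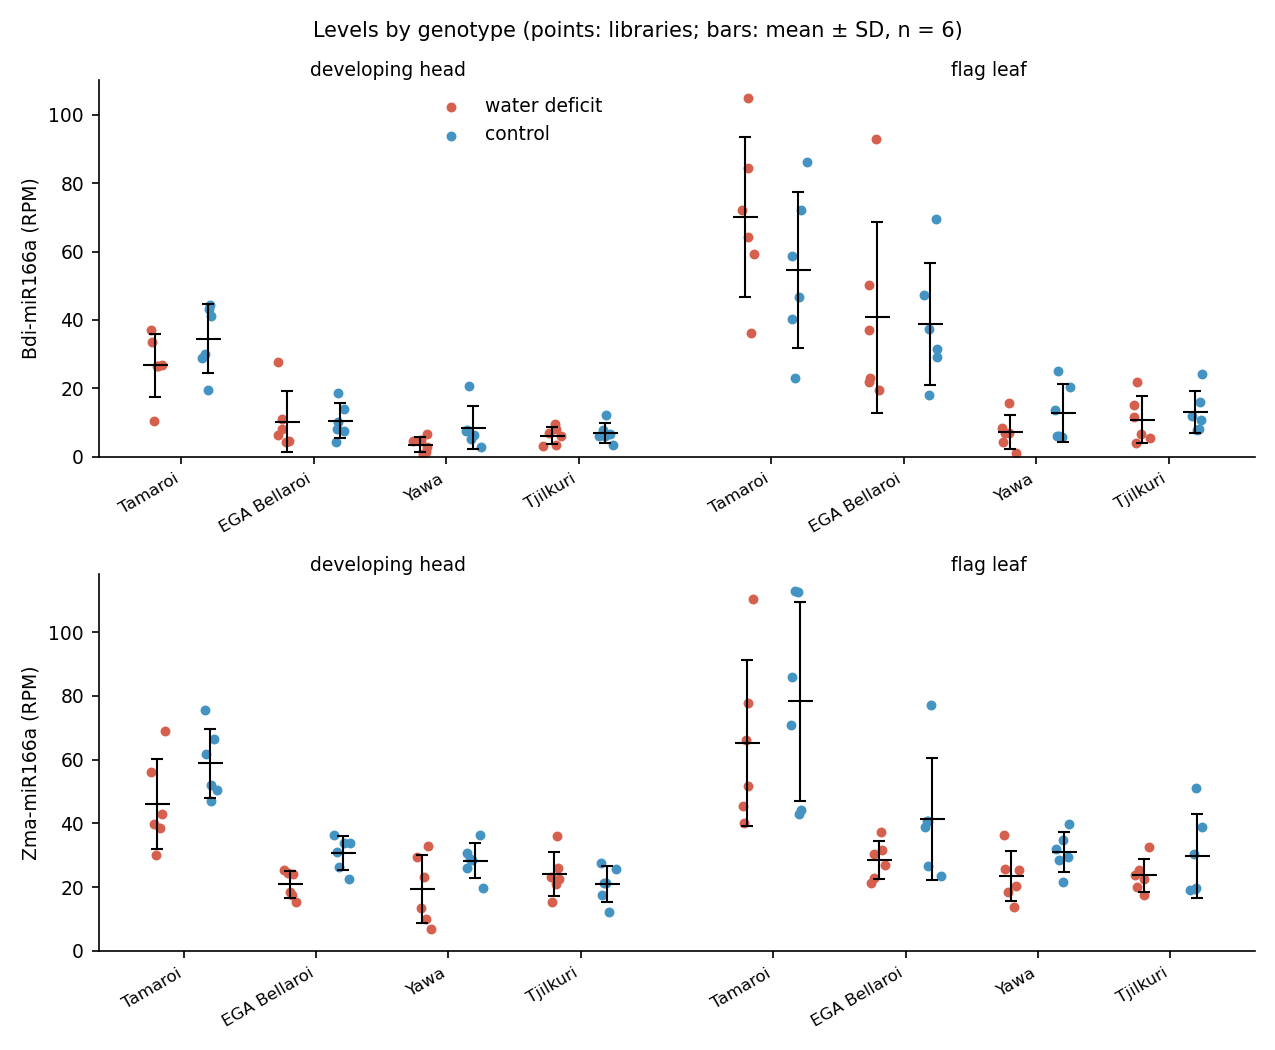
RPM of Bdi-miR166a (upper panel) and Zma-miR166a (lower panel) in each library, by genotype, with developing heads on the left and flag leaves on the right and water deficit before control (points, libraries; bars, mean ± SD, n = 6). Bdi-miR166a averaged 26.8 and 34.5 RPM in Tamaroi heads (water deficit, control) and 3.46 and 8.41 RPM in Yawa heads, and Zma-miR166a averaged 46.1 and 58.9 RPM in Tamaroi heads and 20.8 and 30.7 RPM in EGA Bellaroi heads.

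Within the pairs the study set, the members gave 7 calls higher and 2 lower in the tolerant genotype over 8 comparisons, where 1.25% of all 880 tests were higher and 3.64% lower. In control heads of Tamaroi against EGA Bellaroi, 4 of the 14 members were called higher, beside 7.27% of the 110 miRNAs, and in water deficit heads 2 were, beside 1.82%. Bdi-miR166a differed by 1.70 in control heads (limma adjusted p = 0.00976) and by 1.49 in water deficit heads (limma adjusted p = 0.0278; standard error 0.40 for both). Zma-miR166a differed by 0.92 in control heads (limma adjusted p = 0.0278) and by 1.08 in water deficit heads (limma adjusted p = 0.0217; standard error 0.27 for both). It was also the only 1 of the 110 called higher in water deficit flag leaves (0.909%), by 1.11 on the log2 scale (standard error 0.29, limma adjusted p = 0.0442). Osa-miR166k was 1 of the 4, with 1248 to 2812 RPM in Tamaroi (median 2122 RPM) and 469 to 2628 RPM in EGA Bellaroi (median 938 RPM), which differed by 1.03 on the log2 scale with a standard error of 0.29 (limma adjusted p = 0.0222). Zma-miR166m was another, with means of 5.02 ± 1.70 RPM for Tamaroi against 2.42 ± 1.52 RPM for EGA Bellaroi (SD, n = 6 each; limma adjusted p = 0.0430). Both of these calls were lost after median-ratio scaling (adjusted p = 0.308 and 0.361) and within either season alone. The calls of Bdi-miR166a in water deficit and control heads held after scaling, and those of Zma-miR166a held in water deficit heads and flag leaves but not in control heads (log2 change 0.63 after scaling, limma adjusted p = 0.281). Every one of these calls for Tamaroi over EGA Bellaroi missed the threshold with the 3 libraries a group of a single season, where the log2 changes stayed positive. With all libraries of 1 replicate number left out, Bdi-miR166a was lost in control heads without 2a and in water deficit heads without 1b, 1c, 2a or 2b. Zma-miR166a was lost in water deficit heads without 1b or 2b, in control heads without any but 1b, and in water deficit flag leaves without any but 1a. Osa-miR166k was lost without 1a, 1c, 2a or 2c, and Zma-miR166m without 1b, 1c, 2a or 2c.

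Tamaroi against Yawa and EGA Bellaroi against Tjilkuri were compared after these levels had been seen, and their p-values are given with that limit. Bdi-miR166a was higher in Tamaroi than in Yawa in all 4 combinations of tissue and treatment, and in water deficit flag leaves the 6 Tamaroi libraries at 36.1 to 105 RPM (median 68.2 RPM) lay above the 6 Yawa libraries at 0.899 to 15.6 RPM (median 6.84 RPM). That difference was 3.33 on the log2 scale (standard error 0.44, limma adjusted p = 1.59e-07), and in water deficit heads it was 2.72 (standard error 0.40, limma adjusted p = 1.92e-06). Both kept their call in each of 16 alternatives, single seasons included. In control heads the difference was 2.08 (standard error 0.40, limma adjusted p = 0.000468) and in control flag leaves 2.12 (standard error 0.44, limma adjusted p = 0.00119), and both of these were lost in season 1 alone. Zma-miR166a was also called higher in Tamaroi than in Yawa in all 4, by 1.03 to 1.42 on the log2 scale (limma adjusted p between 0.000158 and 0.0124), although in water deficit heads it came to 0.45 after median-ratio scaling (limma adjusted p = 0.284), and in control heads it was lost without replicate 1c or 2b. All 4 of these Zma-miR166a calls were lost in season 1 alone, and the one in control heads also in season 2 alone. Zma-miR166m was higher in Tamaroi than in Yawa by 1.23 in control heads (standard error 0.28, limma adjusted p = 0.00336) and by 1.42 in control flag leaves (standard error 0.46, limma adjusted p = 0.0338), the second lost without any replicate number but 1c. Both Zma-miR166m calls were lost in either season alone. In water deficit heads Zma-miR166h and Zma-miR166l were called as well, at 1.04 (limma adjusted p = 0.0186) and 1.06 (limma adjusted p = 0.0220), but came to 0.09 and 0.13 after median-ratio scaling and were lost without 2b or 2c, Zma-miR166l also without 1a. Season 1 alone lost both of them too. Between EGA Bellaroi and Tjilkuri, 1 member passed in 1 of the 4 combinations: Bdi-miR166a in water deficit flag leaves, at 40.7 ± 28.1 RPM in EGA Bellaroi and 10.8 ± 6.84 RPM in Tjilkuri (SD, n = 6 each; log2 change 1.79, limma adjusted p = 0.0201). Without replicate 2a, 2b or 2c, or in season 1 alone, this call was lost. For Tamaroi over Yawa, 31.8% of the 110 miRNAs were called higher in water deficit heads, 3.64% in control heads, 17.3% in water deficit flag leaves and 11.8% in control flag leaves. Over these 8 comparisons 2.5% of all values lay higher with no overlap, 8.52% of all tests were called higher and 0.341% lower, and the members gave 13 higher and 0 lower.

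Gma-miR166j, which differs from Ath-miR166b by its last base alone, varied between plants more than between groups. In most plants it was low: the medians were 10.6 RPM in heads and 7.00 RPM in flag leaves (n = 48 each). In a few plants it was high in both organs. The control Tjilkuri plant 2a had 136 RPM in the head against 86.4 RPM in the flag leaf, and the water deficit EGA Bellaroi plant 1a had 93.9 RPM in the head against 73.9 RPM in the flag leaf. The control Tamaroi plant 1a had 40.5 RPM in the head against 37.4 RPM in the flag leaf. The control Tjilkuri plant 1c followed with 29.6 RPM in the head against 30.6 RPM in the flag leaf, and the control EGA Bellaroi plant 1b with 27.6 RPM in the head against 29.4 RPM in the flag leaf. These 5 plants, from 3 genotypes, both treatments and both seasons, held the same 5 places in the order of heads and in that of flag leaves.

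Head and flag leaf of a plant were separate libraries. Of the 48 plants, 5 were above 25 RPM in both organs, 0 in the head alone and 1 in the flag leaf alone, the water deficit Tamaroi plant 1a at 17.1 RPM in the head against 27.8 RPM in the flag leaf. Over the 48 plants, deviations of log2(RPM + 1) from the group means in head and flag leaf were correlated with Pearson r = 0.84 and Spearman rho = 0.69 (permutation p = 1e-05 for each, the smallest that 100000 permutations can give; adjusted over 110 miRNAs, 8.46e-05 and 0.00011). Leaving out the 2 plants farthest from the median in flag leaves gave r = 0.74, and r was 0.81 within season 2 and 0.84 within season 1. Among the 42 plants at or below 25 RPM in both organs r was 0.60. Such a correlation was not particular to Gma-miR166j: it was called for 50% of the 110 miRNAs by rho and for 7 of the 14 members, and by rho Gma-miR166j ranked 6. The next members were Zma-miR166a with rho = 0.59 (permutation p = 2e-05, adjusted 0.000169) and Zma-miR166h with rho = 0.46 (permutation p = 0.00111, adjusted 0.00488), and Ath-miR166b had rho = 0.13 (permutation p = 0.367, adjusted 0.434).

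As a percentage of Ath-miR166b, Gma-miR166j reached 7.25% in the head and 8.47% in the flag leaf of the control Tjilkuri plant 2a, against medians of 0.494% in heads and 0.509% in flag leaves. In that plant Ath-miR166b itself ranked 32 of 48 in heads and 46 of 48 in flag leaves. Its head library and that of the water deficit EGA Bellaroi plant 1a were among the shallowest, at 0.737 and 0.714 M reads, whereas their flag leaf libraries held 7.66 and 2.14 M.

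**Figure D5:**
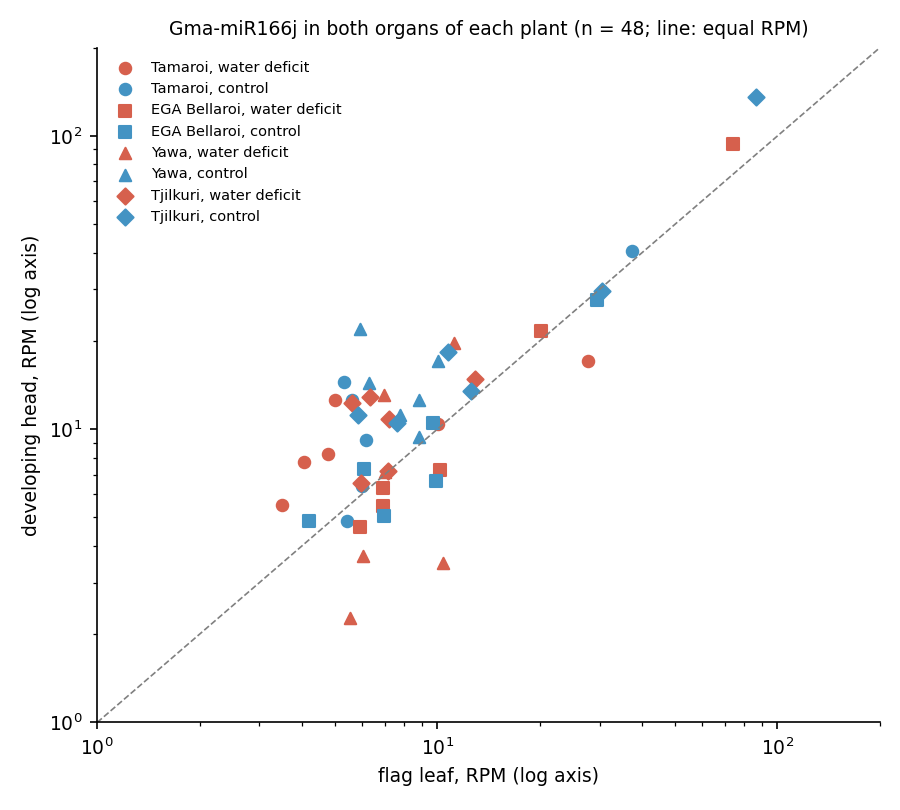
Gma-miR166j in both organs of each of the 48 plants, flag leaf RPM on the horizontal and developing head RPM on the vertical log axis, with symbols for genotype and colours for treatment and a dashed line at equal RPM. The plants at 136 and 93.9 RPM in the head are also the highest in the flag leaf, at 86.4 and 73.9 RPM.

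The comparison of water deficit with control asks whether stress changed the family. Averaged over the 4 genotypes, 0 members were called in heads and 0 in flag leaves by limma, and 0 of the 110 miRNAs were called in either tissue (0%). At an unadjusted p under 0.05, 2 members of 10 miRNAs in heads and 1 member of 11 miRNAs in flag leaves passed. They were Zma-miR166a, at −0.36 in heads (standard error 0.13, limma adjusted p = 0.245) and −0.34 in flag leaves (standard error 0.15, limma adjusted p = 0.338), and Bdi-miR166a, at −0.45 in heads (standard error 0.20, limma adjusted p = 0.395). The 2 most abundant forms did not pass at an unadjusted p under 0.05 in either tissue. Osa-miR166k stood at −0.20 in heads (standard error 0.14) and −0.08 in flag leaves (standard error 0.15). Ath-miR166b stood at −0.05 in heads (standard error 0.13) and −0.03 in flag leaves (standard error 0.12). The difference between the organs in this response was called for 0 of 14 members. At an unadjusted p under 0.05, 0 members passed, beside 3 of the 110 miRNAs.

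In single genotypes, members were called in Yawa heads alone, where 6 of the 14 were lower under water deficit, beside 55.5% of the 110 miRNAs. Ath-miR166b had 714, 2379, 2580, 2330, 953 and 920 RPM in replicates 1a, 1b, 1c, 2a, 2b and 2c of the water deficit group, against 2905, 2181, 2169, 2284, 2764 and 3281 RPM in the control group. Replicates 1a, 2b and 2c were thus low, while the other 3 lay within the control range. The same 3 libraries held the lowest totals of listed miRNAs of the group, at 5514, 6428 and 7879 RPM, against 16001 to 17125 RPM in the other 3. The family made up 33.2%, 41.7% and 38.3% of the listed total in those 3 libraries and 24.1 to 27.6% in the others.

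In Yawa heads the log2 change was −0.83 for Ath-miR166b (standard error 0.26, limma adjusted p = 0.0108), −1.26 for Zma-miR166l (standard error 0.36, limma adjusted p = 0.00681), −1.04 for Bdi-miR166a (standard error 0.40, limma adjusted p = 0.0274), −0.84 for Zma-miR166h (standard error 0.34, limma adjusted p = 0.0336), −0.70 for Zma-miR166a (standard error 0.27, limma adjusted p = 0.0274) and −0.57 for Osa-miR166m (standard error 0.23, limma adjusted p = 0.0349). The median over all 110 miRNAs was −0.99. All 6 calls were lost without replicate 1a, 2b or 2c, and after median-ratio scaling, where 4 of the 6 changed sign, Ath-miR166b to 0.25 (limma adjusted p = 0.218). Osa-miR166k, which was not called, had 679 to 1466 RPM in water deficit heads (median 895 RPM) and 796 to 1972 RPM in control heads (median 1221 RPM).

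Against Tjilkuri, water deficit heads of Yawa had 2 members called lower, beside 29.1% of the 110 miRNAs: Zma-miR166l at 15.9 to 105 RPM in Yawa (median 54.8 RPM) and 56.5 to 112 RPM in Tjilkuri (median 104.5 RPM), and Osa-miR166m at 260 to 537 RPM in Yawa (median 444 RPM) and 393 to 917 RPM in Tjilkuri (median 672 RPM). On the log2 scale Zma-miR166l changed by −1.11 ± 0.36 and Osa-miR166m by −0.60 ± 0.23 (± standard error; limma adjusted p = 0.0297 for Zma-miR166l and 0.0485 for Osa-miR166m), and neither call held without replicate 1a, 2b or 2c, nor after median-ratio scaling, where Osa-miR166m turned to 0.30. The second was also lost without 1b. The interaction of tolerance class with treatment over the 96 libraries was called for 1 of 14 members, beside 25.5% of the 110 miRNAs. This was Zma-miR166l at −0.70 (standard error 0.26, limma adjusted p = 0.0460), which did not pass with the plant as a block (adjusted p = 0.134) or after median-ratio scaling, nor without replicate 1a, 2a, 2b or 2c. Within the pairs, the interaction of genotype with treatment was called for 0 members. In heads of Yawa and Tjilkuri 5 members passed at an unadjusted p under 0.05, beside 52 of the 110 miRNAs. By limma adjusted p, 1.82% of the 110 were called lower there.

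Between seasons, Zma-miR166a was lower in season 2 flag leaves, with 13.6 to 86.1 RPM in season 2 (median 24.7 RPM) and 18.6 to 113 RPM in season 1 (median 38.1 RPM; n = 24 each). The log2 change was −0.46 (standard error 0.13, limma adjusted p = 0.0399), the only member called beside 2.73% of the 110 miRNAs, and it did not pass after median-ratio scaling or without any 1 of replicates 1b, 1c, 2a, 2b and 2c. In heads 0 members were called, beside 8.18% of the 110 miRNAs. At an unadjusted p under 0.05, 1 member passed there, beside 18 of the 110 miRNAs. Zma-miR166a stood at 10.1 to 66.3 RPM in season 2 heads (median 28.0 RPM) and 6.98 to 75.5 RPM in season 1 heads (median 27.0 RPM). The season effect in heads minus that in flag leaves was called for 0 members without a block. At an unadjusted p under 0.05, 4 members passed in that fit, beside 18 of the 110 miRNAs. With the plant as a block 2 members were called, where 8.18% of the 110 miRNAs were called: Bdi-miR166a at 0.75 (standard error 0.21, limma adjusted p = 0.0258) and Zma-miR166a at 0.46 (standard error 0.13, limma adjusted p = 0.0260).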

How the data were processed

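The authors size-selected small RNA from TriPure extracts (15 to 40 nt), made NEBNext Multiplex Small RNA libraries, sequenced them on an Illumina HiSeq, trimmed reads in CLC Genomics Workbench (15 to 50 nt kept), and matched them to miRBase mature miRNAs of 9 plant species with up to 2 mismatches. The deposited values are RPM, reads per 1000000 total small RNA reads, for miRNAs that exceeded 2 RPM in 50% or more of all libraries. The authors' table of miRNAs that they predicted themselves was not used here. All 10451 values above 0 were whole multiples (within 0.01) of one value per library, which gave the depths. Intervals of counting error are not given, and counting error was not compared with the spread between plants.

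Fits used limma 3.58.1 in R 4.3.3 on log2(RPM + 1), with a trended prior variance and Benjamini-Hochberg adjustment over all 110 miRNAs (109 relative to Ath-miR166b) in each comparison. Head against flag leaf, its interactions and tolerance by treatment used 96 libraries, and the others the 48 of a tissue. A log2 change understates the change of members near 1 RPM. Every member is named, and calls are given with their statistics, except those of head against flag leaf in single groups, which are given as counts; likeness to other miRNAs was Spearman's rho over 16 group means. Code was tested on simulated data. In fits within a tissue each library is from another plant, so p-values measure the spread between plants. Fits of 96 libraries without a plant block treat the 2 libraries of a plant as independent, and their p-values measure the spread between libraries. Tolerance by treatment was fitted with tissue but no genotype term, and each class holds 2 genotypes. Its p-values therefore do not measure the spread between genotypes of a class. The plant numbers in the labels pair head and flag leaf: over 48 plants the deviations of the 2 organs correlated with a median r of 0.51, and 43 were above 0.1. No 2 replicates had the same values (240 pairs). The members, lists and tests were chosen with earlier results of these data known.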

Additional observations from a re-analysis of the deposited data

Results flagged for a closer look

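The 14 members and the family sum in 16 groups gave 240 sets of 6 libraries. Of these, 31 (12.9%) had 1 library farther from the rest than Dixon's 95% limit allows. The far library was the highest in 30 and the lowest in 1. Dixon's limit assumes normally distributed values and was applied to untransformed RPM, and the sets share libraries. The share therefore cannot be set against a chance rate.

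Gma-miR166j gave 10 of these, 8 of them in both organs of 4 plants. The far values were 135.6 RPM in the head against 86.4 RPM in the flag leaf of the control Tjilkuri plant 2a, and 93.9 RPM and 73.9 RPM in the head and flag leaf of the water deficit EGA Bellaroi plant 1a. They were 40.5 RPM in the head against 37.4 RPM in the flag leaf of the control Tamaroi plant 1a, and 27.6 RPM in the head against 29.4 RPM in the flag leaf of the control EGA Bellaroi plant 1b. In flag leaves alone, the water deficit Tamaroi plant 1a had 27.8 RPM and the water deficit Tjilkuri plant 1a had 12.9 RPM.

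The control EGA Bellaroi flag leaf library 1b was far above the other 5 for the family sum (20325 RPM), Zma-miR166h (3816 RPM), Ath-miR166b (3228 RPM), Zma-miR166a (77.2 RPM) and Bdi-miR166e (16.0 RPM), besides Gma-miR166j. Other flag leaf libraries stood apart for 1 member each: Tamaroi water deficit 2c for Ath-miR166b (2297 RPM), Yawa control 1c for Bdi-miR166e (7.92 RPM), Yawa control 1b for Zma-miR166l (184.2 RPM) and Tjilkuri control 1a for Gma-miR166m (5.81 RPM). Sbi-miR166k had 52.5 RPM in the Tjilkuri water deficit flag leaf 1a.

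In heads, EGA Bellaroi control 2b was highest for Osa-miR166k (2628 RPM) and Sbi-miR166k (40.0 RPM), and EGA Bellaroi water deficit 2c for Bdi-miR166a (27.5 RPM) and Sbi-miR166k (23.3 RPM). In Yawa heads, Bdi-miR166a had 20.7 RPM in control 1a, Bdi-miR166f had 45.9 RPM in control 1c and 36.0 RPM in water deficit 2b, and Sbi-miR166k had 32.7 RPM in water deficit 2c. In Tjilkuri heads, Zma-miR166h had 280.1 RPM in control 2c, Osa-miR166m had 708.5 RPM in control 1b, and Zma-miR166l was lowest in water deficit 1c, at 56.5 RPM.

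The water deficit effect on Zma-miR166l differed between the tolerant and sensitive classes by −0.70 on the log2 scale (limma adjusted p = 0.0460), a call that was lost in 8 of 15 alternatives. The p-value does not measure the spread between genotypes of a class.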

How the results depend on the processing

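The calls of single members were recomputed under each alternative: of 775 repeats over 50 results, 608 kept the call, 161 lost it and 6 changed sign, the cause being not tested. All 6 sign changes came with median-ratio scaling: Zma-miR166a in heads over flag leaves (0.53), in Yawa heads under water deficit Zma-miR166a (0.33), Ath-miR166b (0.25), Zma-miR166h (0.23) and Osa-miR166m (0.51), and Osa-miR166m in water deficit heads of Yawa over Tjilkuri (0.30).

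Counts of member calls moved as follows. The share of all listed miRNAs called under each alternative is not given beside them. Apart from season by tissue with the plant as a block, whose share is given above, they are not set against a background. A rise or fall in these counts, such as that from 44 to 68, is therefore not shown to be particular to the family. Median-ratio scaling gave 68 for head against flag leaf in single groups (44 as reported), 0 for water deficit (6), 4 for genotypes within a pair (9), 0 for tolerance by treatment (1) and 0 for season (1). Season 1 alone, with 3 libraries a group, gave 0 for water deficit, 0 within a pair, 0 for tolerance by treatment and 2 across the pairs (13). Season 2 alone gave 28 for head against flag leaf, 3 for water deficit and 1 within a pair. Fits of the 12 libraries alone gave 0 for water deficit and 1 within a pair. Without libraries under 1 M reads there were 5 within a pair and 0 for tolerance by treatment. A mean of at least 10 RPM gave 1 for genotype by treatment (0). With the plant as a replicate block, season by tissue gave 2 (0) and tolerance by treatment 0.

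Leaving out 1 replicate number gave 0 to 7 for water deficit, 3 to 6 within a pair, 8 to 13 across the pairs, 0 to 4 for genotype by treatment, 0 to 2 for tolerance by treatment and 0 to 1 for season. The share of all listed miRNAs is not given for these counts either, so the same limit holds. Season and letter do not pair plants across groups: 23 of 48 water deficit and control pairs, and 28 of 48 genotype pairs, correlated above 0.1. The planned edgeR fit on recovered reads was not run. Members near 1 to 3 RPM rest on few reads in shallow libraries, where 1 read is worth up to 1.64 RPM.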
